A study of Homo sapiens with 3 samples.

Results

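The genes described here encode homeodomain proteins of the TALE class that bind DNA alongside MEIS1 or are related to it, and they were chosen by name: MEIS1, MEIS2, MEIS3, PBX2, PBX3, PBX4, PKNOX1, PKNOX2 and TGIF1, together with antisense genes named after a member. These 9 genes were looked up in the deposited annotation of MEIS1 ChIP-seq peaks, and 12 of 8015 peaks carried their names. The LV-MEIS1 list held 11 of them among 5968 peaks, and the HOXB13ko-LV-MEIS1 list held 1 among 2047 peaks. The paper reports more LV-MEIS1 peaks than this deposited list holds, and nearly the same number for the knockout line. The reason is not known here, and all ranks, shares and absences below refer to the deposited lists.

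CWR22Rv1 is an established human prostate carcinoma cell line, and both lists come from derivatives of it that express exogenous MEIS1 from a lentiviral vector under puromycin selection. LV-MEIS1 cells retain endogenous HOXB13. HOXB13ko-LV-MEIS1 cells carry in addition a CRISPR knockout of HOXB13 and an integrated Cas9, and were made by recombining several clonal knockout lines into a pool. Their Cas9 construct had already been selected with puromycin before the MEIS1 vector was added. The amount of MEIS1 in each line was not compared here. Chromatin was immunoprecipitated with the MEIS1 antibody 3 times from LV-MEIS1 cells and 2 times from HOXB13ko-LV-MEIS1 cells, and the authors merged the reads of each line before they called peaks. The headers of both lists name the same input DNA of CWR22Rv1 cells, although the study's methods speak of input specific to each line. The label of that input names no derivative, so which cells gave the background is not known here. Each line therefore has 1 list, no replicate error exists, and no difference between the lines could be tested; 95% Wilson intervals given for shares cover counting error only. The pools held 202428594 and 105763683 tags and the input 39102495 tags, so that the list from the knockout line rests on fewer reads as well as on the absence of HOXB13, and depth and genotype cannot be told apart.

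TALE proteins share a homeodomain with an insertion of amino acids in the loop between its helices. MEIS and PKNOX proteins have an N-terminal domain through which they pair with PBX proteins, and this pairing controls the nuclear localization and DNA binding of PBX. PBX proteins in turn bind DNA together with HOX proteins, while TGIF proteins recognize a word like that of MEIS and act mainly as transcriptional repressors, among other settings in TGF-beta signaling through SMAD proteins. The core bound by MEIS, PKNOX and TGIF proteins is TGACA, the word of PBX next to MEIS or PKNOX is TGATTGAC, the word of PBX next to a HOX protein is TGATTNAT, and HOXB13 recognizes words with the core ATAAA. All were searched on both strands within 50 bp of each summit, and TGACA lies within TGACAG and can overlap TGATTGAC.

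In LV-MEIS1 cells 6 of the 9 genes had a peak by gene name: TGIF1 had 4, PBX3 and MEIS1 had 2 each (1 of the latter under the name MEIS1-AS2), and PKNOX1, PKNOX2 and MEIS3 had 1 each. For comparison, 14.7% of 20020 protein-coding genes had a peak in that list. No peak carried the name MEIS2, PBX2 or PBX4. In HOXB13ko-LV-MEIS1 cells only MEIS1 was represented, through its antisense neighbour MEIS1-AS3, against 5.63% of protein-coding genes. None of the 12 peaks overlapped a peak of the other list, a count to be read beside 7.66% of all LV-MEIS1 peaks (7.01% to 8.36%) and 22.3% of all HOXB13ko-LV-MEIS1 peaks (20.5% to 24.1%) that did overlap. Since 11 and 1 are small numbers of peaks, these counts describe the genes and do not set them apart from others.

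**Figure D1:**
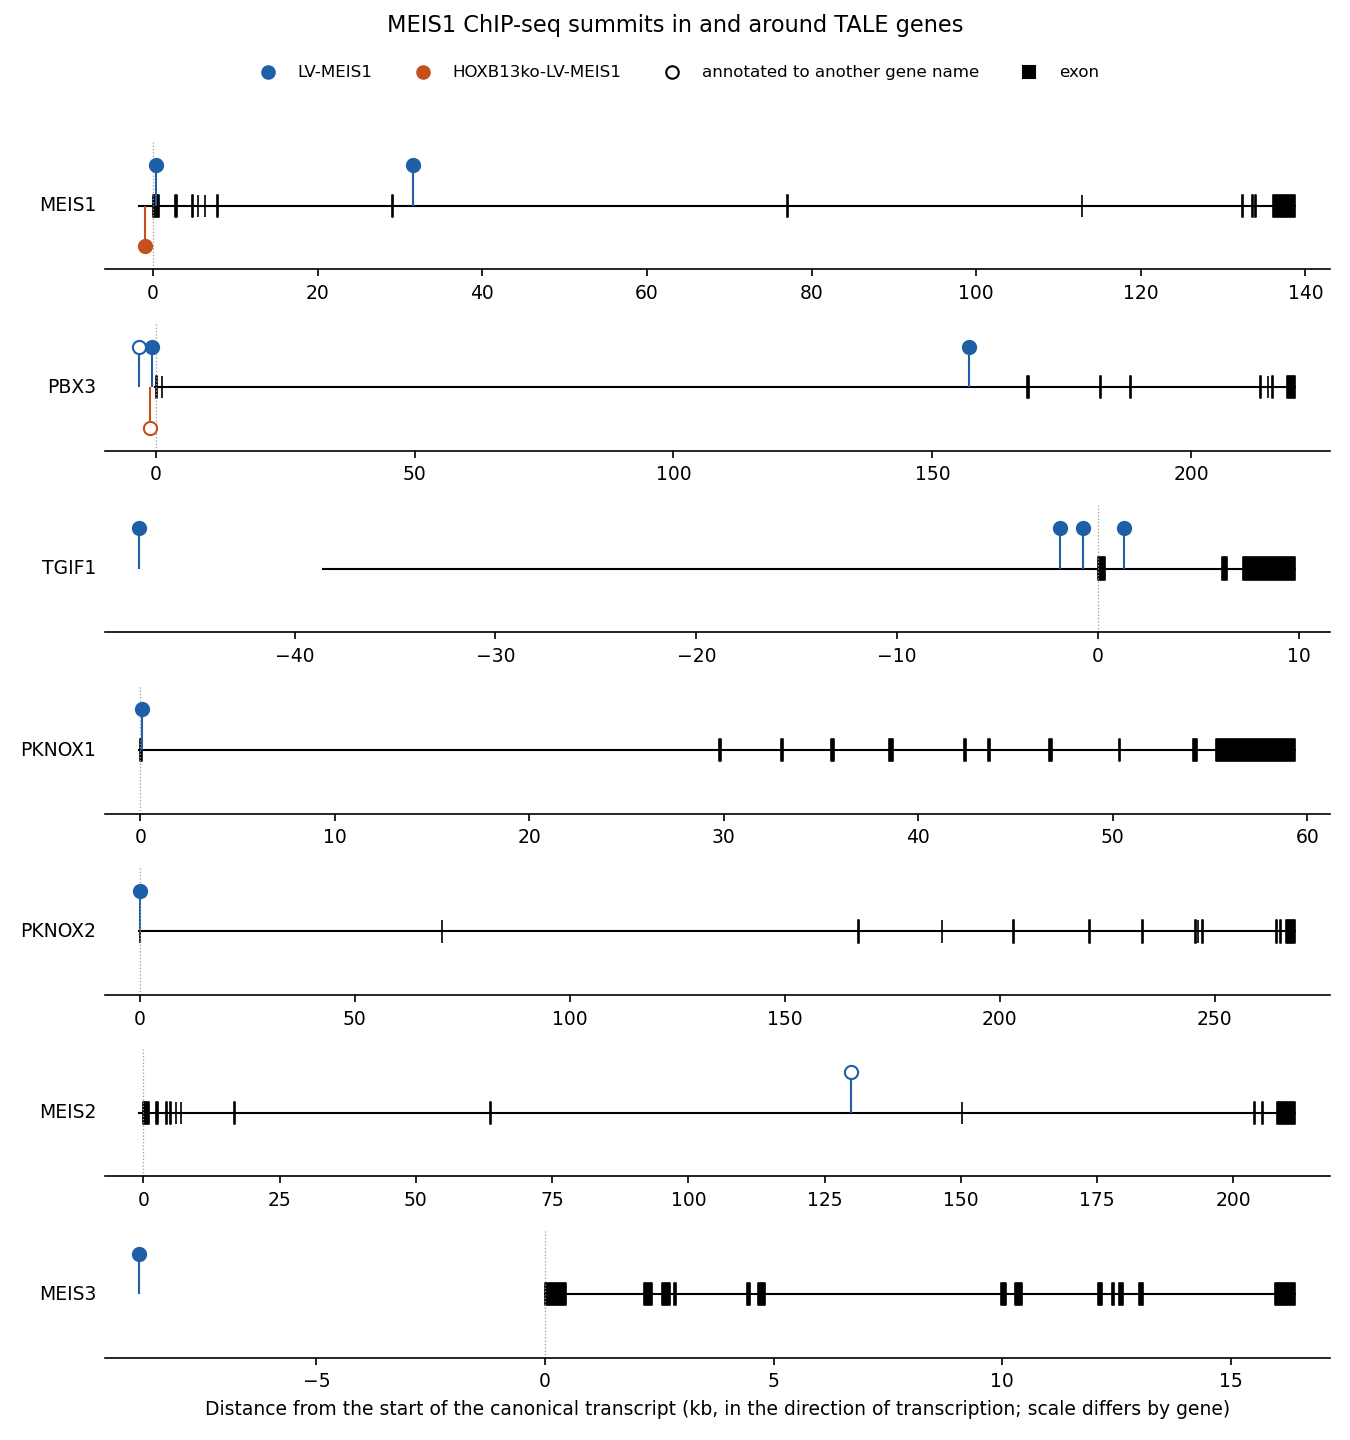
Summits of MEIS1 ChIP-seq peaks along 7 TALE genes, drawn from the start of the canonical GENCODE transcript in kb and in the direction of transcription, with exons as black boxes; the scale differs by gene. LV-MEIS1 summits stand above the gene line and HOXB13ko-LV-MEIS1 summits below it, and open circles mark peaks annotated to another gene name. The 2 knockout summits lie just upstream of the canonical transcript starts of MEIS1 and PBX3, the former still within the span of the gene. MEIS3, PBX3 and TGIF1 have LV-MEIS1 summits outside the gene.

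In LV-MEIS1 cells MEIS1 had a peak at the start of its own gene. The MEIS1 gene spans chr2:66433452-66573869 on the plus strand (hg38, GENCODE release 44), and the LV-MEIS1 peak at chr2:66435323-66435579 had its summit at 66435465, 65 bp downstream of the annotated transcription start site and in the 5′ UTR within exon 1 of 13. Its pileup, the number of extended reads over the summit after scaling to the depth of the input, was 27.62 and corresponded to 143 reads. Its fold enrichment over the local background was 7.35, and the −log10 q-value was 13.8. By pileup the peak stood at the 47.1 percentile of its list and by fold enrichment at the 70.1 percentile, near the middle in the former and in the upper part in the latter. The summit sequence is shown because it holds both kinds of TALE word, TGACA and the PBX-MEIS composite TGATTGAC, with their letters in capitals (30 bases, plus strand, chr2:66435453-66435482).
MEIS1 exon 1: cgtTGACAacctcgcctgTGATTGACAgct
The composite word was found in 1 of the 11 LV-MEIS1 peaks of these genes and in 1.71% of all LV-MEIS1 peaks. The vector in these cells carries MEIS1, and reads from it would map to MEIS1 exons. This peak covered 0 coding bases, and it was the only peak of either list to overlap any of the 13 exons. Whether the vector contains sequence of this UTR is not given in the sources used here.

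A second LV-MEIS1 peak lay inside MEIS1. It covered chr2:66466602-66466889 with the summit at 66466740 in intron 7 of 12, 31615 bp from the start of the canonical transcript, and it was annotated to the antisense gene MEIS1-AS2, 26410 bp upstream of the start of that gene. Pileup was 29.17 (151 reads) and fold enrichment 6.03, at the 52.9 and 46.9 percentiles, which placed it close to the median of the list on both scales. The window is A and T rich, with a GC share of 29.7% against a median of 42.6% over all LV-MEIS1 windows, and it held no TGACA. It held 4 matches to ATAAA, shown in capitals (61 bases, plus strand, chr2:66466710-66466770), of which a pair overlap.
MEIS1 intron 7: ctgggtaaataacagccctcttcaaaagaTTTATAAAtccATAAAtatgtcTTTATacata
All 4 matches lay within 25 bp of the summit.

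The peak of the knockout line lay on the other side of the MEIS1 start. At chr2:66433999-66434487, with the summit at 66434190, it was 935 bp upstream of the start of the canonical MEIS1 transcript and 720 bp upstream of that of MEIS1-AS3, a gene on the opposite strand. Its pileup was 41.41 (112 reads), its fold enrichment 10.6 and its −log10 q-value 27.2. These values put it at the 84.9 percentile of the HOXB13ko-LV-MEIS1 list by pileup and at the 94.6 percentile by fold enrichment, rank 112 of 2047. Its summit was 1275 bp from the LV-MEIS1 summit in exon 1, and 835 bp separated the 2 peaks. The sequence is given because it contrasts with that of exon 1: it holds none of the words searched and 18 CpG dinucleotides, marked in capitals (101 bases, plus strand, chr2:66434140-66434240).
MEIS1 upstream, HOXB13ko-LV-MEIS1: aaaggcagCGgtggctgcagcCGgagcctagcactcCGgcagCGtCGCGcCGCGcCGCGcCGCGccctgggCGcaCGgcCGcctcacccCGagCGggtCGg
Its GC share was 80.2%, against medians of 55.4% over all windows of that list and 42.6% over those of the LV-MEIS1 list. TGACA was present in 16.8% of HOXB13ko-LV-MEIS1 windows and in 56.1% of LV-MEIS1 windows, so that a window without it was the usual case in the knockout list.

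MEIS2, the close relative of MEIS1, had no peak by gene name in either list. Its locus was not empty in LV-MEIS1 cells: a peak at chr15:36970643-36970855, with the summit at 36970732 in intron 8 of 11, had been annotated to the microRNA gene MIR8063 because that start site lay nearer, at 2169 bp. It was a weak peak, with a pileup of 20.09 (104 reads) at the 9.54 percentile, a fold enrichment of 5.41 and a −log10 q-value of 7.63. Within 50 bp of the summit it held 3 matches to ATAAA and none to TGACA. The stretch around the summit is shown with the match nearest to it in capitals (61 bases, plus strand, chr15:36970702-36970762).
MEIS2 intron 8: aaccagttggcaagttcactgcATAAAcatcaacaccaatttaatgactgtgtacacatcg
In HOXB13ko-LV-MEIS1 cells the nearest peak to MEIS2 was 2545989 bp away, at NOP10.

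MEIS3 had 1 LV-MEIS1 peak, which was named for MEIS3 but lay in a neighbouring gene. The peak at chr19:47428274-47428503, summit 47428397, was 6164 bp upstream of the annotated MEIS3 start and in the 3′ UTR of exon 10 of SLC8A2, which encodes a sodium/calcium exchanger. It had the lowest pileup of the 11, 20.86 (108 reads, 13.1 percentile), with a fold enrichment of 5.61 (36.4 percentile). None of the words searched occurred near its summit. The nearest HOXB13ko-LV-MEIS1 summit was 19497 bp away and was annotated to SLC8A2.

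Of the PBX genes, PBX3 had 2 LV-MEIS1 peaks of opposite kinds. PBX3 encodes a partner that MEIS1 binds through its N-terminal domain, and the gene spans chr9:125747345-125967377. The promoter peak at chr9:125746547-125746760, summit 125746690, annotated to the promoter of the LOC51145 transcript described below, lay 648 bp upstream of the annotated PBX3 start. Its pileup of 56.79 (294 reads) ranked 207 of 5968, at the 96.5 percentile, while its fold enrichment of 3.96 ranked 5669, at the 5.03 percentile. The local background that separates these values was 13.6 on the scale of the pileup, rank 7 in the list, against a median of 3.34. The intronic peak at chr9:125904261-125904612, summit 125904429, lay in intron 2 of 8 and 156230 bp from the annotated start. Its pileup was lower, 40.76 (211 reads, 82.8 percentile), but on a background of 3.24 its fold enrichment was 9.85 (89.9 percentile) and its −log10 q-value 25.4, both the highest among the 11 peaks.

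The PBX3 peaks also differed in sequence. The promoter window held 1 match to TGACA, as its reverse complement and within TGACAG, 16 bp from the summit (61 bases, plus strand, chr9:125746660-125746720, match in capitals). The intronic window held no TGACA and 1 match to ATAAA, 22 bp from the summit (61 bases, plus strand, chr9:125904399-125904459, match in capitals).
PBX3 promoter: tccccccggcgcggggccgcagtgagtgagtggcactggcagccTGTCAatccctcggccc
PBX3 intron 2: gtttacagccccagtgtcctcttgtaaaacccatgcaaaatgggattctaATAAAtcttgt
GC shares were 75.2% and 36.6%.

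The PBX3 promoter was also the place where the lists came closest. The HOXB13ko-LV-MEIS1 list held a peak at chr9:125746176-125746440, summit 125746337, annotated to LOC51145, a noncoding transcript that starts upstream of PBX3 and runs in the opposite direction. Its pileup was 34.01 (92 reads, 72.4 percentile) and its fold enrichment 5.15 (34.7 percentile), and 106 bp separated it from the LV-MEIS1 promoter peak. The summits were 353 bp apart. A further LV-MEIS1 peak, at chr9:125744093-125744378, summit 125744255, lay in the intron of LOC51145 with a pileup of 30.71 (159 reads) and a fold enrichment of 6.15. Its window held 3 matches to ATAAA and no TGACA, whereas the HOXB13ko-LV-MEIS1 window held neither.

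PBX2 and PBX4 had no peak within 10 kb of the gene in either list. PBX2 (chr6:32184733-32190202) lies in the major histocompatibility complex, and no peak of either list fell between summits at 28474604 and 34536791, a stretch of 6.06 Mb. The reference used by the authors holds alternative versions of this region, to which 3 LV-MEIS1 and 1 HOXB13ko-LV-MEIS1 peaks on chromosome 6 contigs were assigned, and the part this played was not tested. PBX4 (chr19:19561707-19618693) lay among LV-MEIS1 peaks without holding one: 8 were within 500 kb and the nearest, at ATP13A1, was 45088 bp from the gene. In HOXB13ko-LV-MEIS1 cells the nearest was 1358141 bp away.

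PKNOX1 and PKNOX2, the paralogs that pair with PBX in the same way as MEIS, both had an LV-MEIS1 peak near the start of the gene. The PKNOX1 peak at chr21:42974518-42974790 had its summit at 42974662, 152 bp downstream of the annotated start and in the 5′ UTR. In the canonical transcript that summit lay 100 bp from the start and 2 bp before the end of exon 1. The PKNOX2 peak at chr11:125164625-125164914, annotated as a promoter, had its summit at 125164783, 120 bp downstream of the annotated start. In the canonical transcript, which starts elsewhere, that summit lay 32 bp from the start and 7 bp after the end of exon 1. Of the words searched, PKNOX1 held 2 matches to TGACA and PKNOX2 held 4, and neither held ATAAA. The PKNOX1 stretch is printed because its matches flank the splice donor (44 bases, plus strand, which is the sense strand of the gene, chr21:42974635-42974678, with matches to the reverse complement of TGACA in capitals).
PKNOX1: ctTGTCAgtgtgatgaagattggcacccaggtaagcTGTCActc
The first 30 bases belong to exon 1 and the rest to intron 1, so that 1 match lay on each side of the donor.

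The PKNOX peaks had different heights. PKNOX1 had the highest pileup of the 11 peaks, 64.71 (335 reads), rank 58 of 5968 and the 99.0 percentile. Its local background of 15.4, on the scale of the pileup, was the second highest of the list. Its fold enrichment was 4.01, at the 5.51 percentile. PKNOX2 had a pileup of 41.34 (214 reads, 83.7 percentile) on a background of 4.40, which gave a fold enrichment of 7.84 (75.6 percentile). On the 2 scales the order of the paralogs was therefore opposite. No HOXB13ko-LV-MEIS1 peak lay closer than 228714 bp to PKNOX1 or 454037 bp to PKNOX2.

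TGIF1, which encodes a repressor that recognizes the MEIS core word, had more LV-MEIS1 peaks than any other gene of the group. The gene spans chr18:3411608-3459978 and has many start sites, and 3 of the 4 peaks lay within 3185 bp of each other around those of its shorter transcripts. From 5′ to 3′, the peak at chr18:3402330-3402566 lay 9484 bp upstream of the annotated start site in intergenic sequence, with a pileup of 33.61 (174 reads) and a fold enrichment of 6.66. The peak at chr18:3448110-3448445, in a CpG island 706 bp downstream of a start site, had a pileup of 26.85 (139 reads) and a fold enrichment of 7.15. The peak at chr18:3449307-3449551, 24 bp downstream of another start site and in a 5′ UTR, had a pileup of 22.21 (115 reads) and a fold enrichment of 5.80.

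The peak at chr18:3451260-3451631, 72 bp downstream of a further start site, was the strongest of the TGIF1 peaks, with a pileup of 36.51 (189 reads, 74.9 percentile), a fold enrichment of 9.38 (87.6 percentile) and a −log10 q-value of 22.4. By fold enrichment the other TGIF1 peaks stood at the 41.3 to 67.5 percentiles. No HOXB13ko-LV-MEIS1 peak was found within 3269412 bp of the gene.

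The TGIF1 peaks held different words, which are in capitals in the stretches shown: TGACA with ATAAA at the intergenic peak (chr18:3402413-3402473), TGACA on both strands at the peak in the 5′ UTR (chr18:3449423-3449452), and TGATTNAT overlapping the reverse complement of ATAAA at the strongest peak (chr18:3451447-3451507).
TGIF1 intergenic: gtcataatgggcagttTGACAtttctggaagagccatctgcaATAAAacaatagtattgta
TGIF1 5′ UTR: cgTGACAagtgtctgtccgcaacgTGTCAg
TGIF1 strongest: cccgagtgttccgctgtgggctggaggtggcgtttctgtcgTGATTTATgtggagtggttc
The peak in the CpG island held none of the words searched. TGATTNAT, the PBX-HOX word, was found in this 1 of the 11 LV-MEIS1 peaks and in 12.7% of all LV-MEIS1 peaks.

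**Figure D2:**
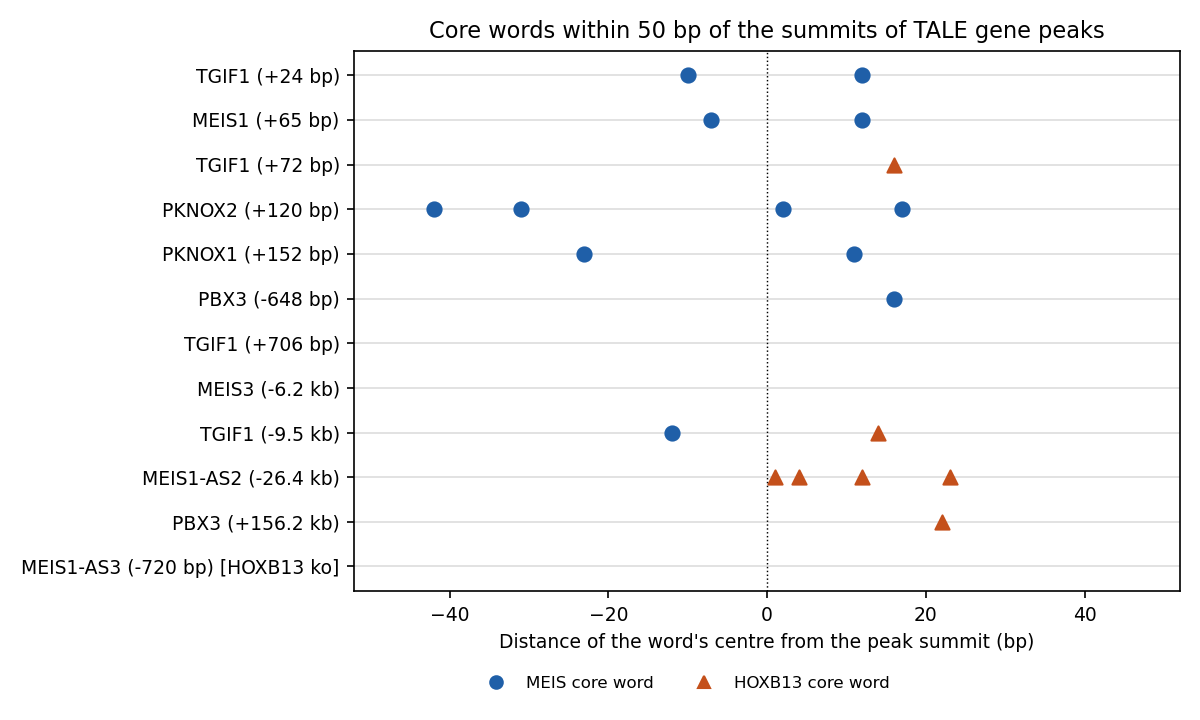
Positions of the MEIS core word (circles) and the HOXB13 core word (triangles) within 50 bp of the summits of the 12 peaks, in bp from the summit along the plus strand. LV-MEIS1 peaks are ordered from the nearest to the farthest from the annotated start site, and the HOXB13ko-LV-MEIS1 peak is in the last row. The peaks at MEIS1-AS2 and in intron 2 of PBX3 hold the HOXB13 core word only, and the peaks at PKNOX1, PKNOX2, MEIS1 and the PBX3 promoter hold the MEIS core word only.

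Over the 11 LV-MEIS1 peaks, 6 held TGACA, against 56.1% of all LV-MEIS1 peaks (54.8% to 57.4%), and 4 held the longer TGACAG, against 30.4%. The count of TGACA was thus close to the background of the list. ATAAA was found in 4 of the 11 peaks, against 45.8% of all peaks. Only the intergenic TGIF1 peak held both words, 3 held ATAAA without TGACA, and 2 held neither. TGACA occurred more than 1 time in 4 of the 11 peaks, those of PKNOX1, PKNOX2, MEIS1 exon 1 and the TGIF1 5′ UTR, against 13.6% of all LV-MEIS1 peaks.

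The words were also counted by distance from the start site. Of the 7 LV-MEIS1 peaks within 1 kb of the annotated start site, 5 held TGACA and 1 held ATAAA. Of the 4 farther peaks, those of the TGIF1 intergenic region, MEIS3, MEIS1 intron 7 and PBX3 intron 2, 1 held TGACA and 3 held ATAAA. Over all LV-MEIS1 peaks the share with ATAAA was 12.1% within 1 kb and 56.4% beyond it, while the share with TGACA was 56.3% and 56.0%. The split of ATAAA among the members was thus like that of the whole list. The split of TGACA among them was not seen in the whole list, and it rests on few peaks.

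Most of the peaks were close to a start site. Among the 11 LV-MEIS1 peaks 9 had their summit within 10 kb of the annotated start site, against 38.1% of all peaks in the list (36.9% to 39.3%), and 7 within 1 kb, against 23.8% (22.7% to 24.9%). Their median distance was 648 bp, and that of the list 23121 bp. The HOXB13ko-LV-MEIS1 peak, 720 bp from its start site, was among the 48.7% of that list within 10 kb. TGIF1 and its many start sites contributed 4 of the 9 near peaks, and the peaks of 1 gene are not independent of each other.

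**Figure D3:**
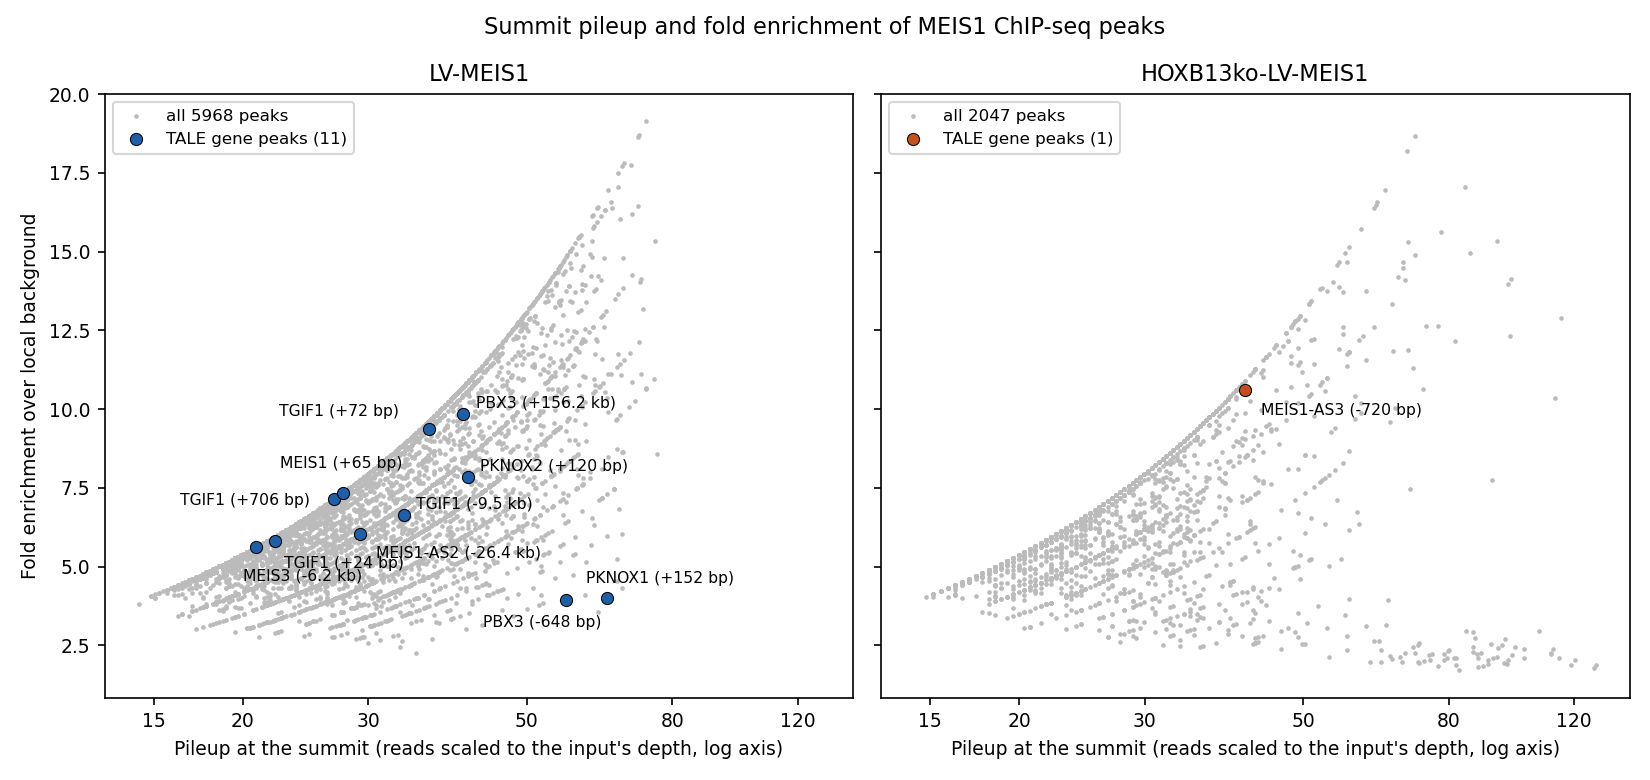
Pileup at the summit (log axis, reads scaled to the depth of the input) against fold enrichment over the local background for all 5968 LV-MEIS1 peaks (left) and all 2047 HOXB13ko-LV-MEIS1 peaks (right) in grey, with the 11 and 1 peaks of TALE genes in color and their distance from the annotated start site in brackets. The upper edge is formed by peaks whose background is at its lowest value, and PKNOX1 and the PBX3 promoter stand far to the right at a fold enrichment near 4.

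Ranked by pileup, the 11 LV-MEIS1 peaks ran from the 13.1 to the 99.0 percentile of their list with a median of 67.5, and by fold enrichment from the 5.03 to the 89.9 percentile with a median of 59.7. The reads behind them numbered 108 to 335. PKNOX1 and the PBX3 promoter fell from the top of the pileup ranking to the bottom of the fold enrichment ranking. The background of these peaks reached 15.4 and 13.6 on the scale of the pileup. It came from the input, which held 39102495 tags against 202428594 in the pool. At 3 peaks, those of MEIS1 exon 1, MEIS3 and the TGIF1 CpG island, the background was at its lowest value in the list, 2.90 on the same scale, as at 31.8% of all LV-MEIS1 peaks.

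**Figure D4:**
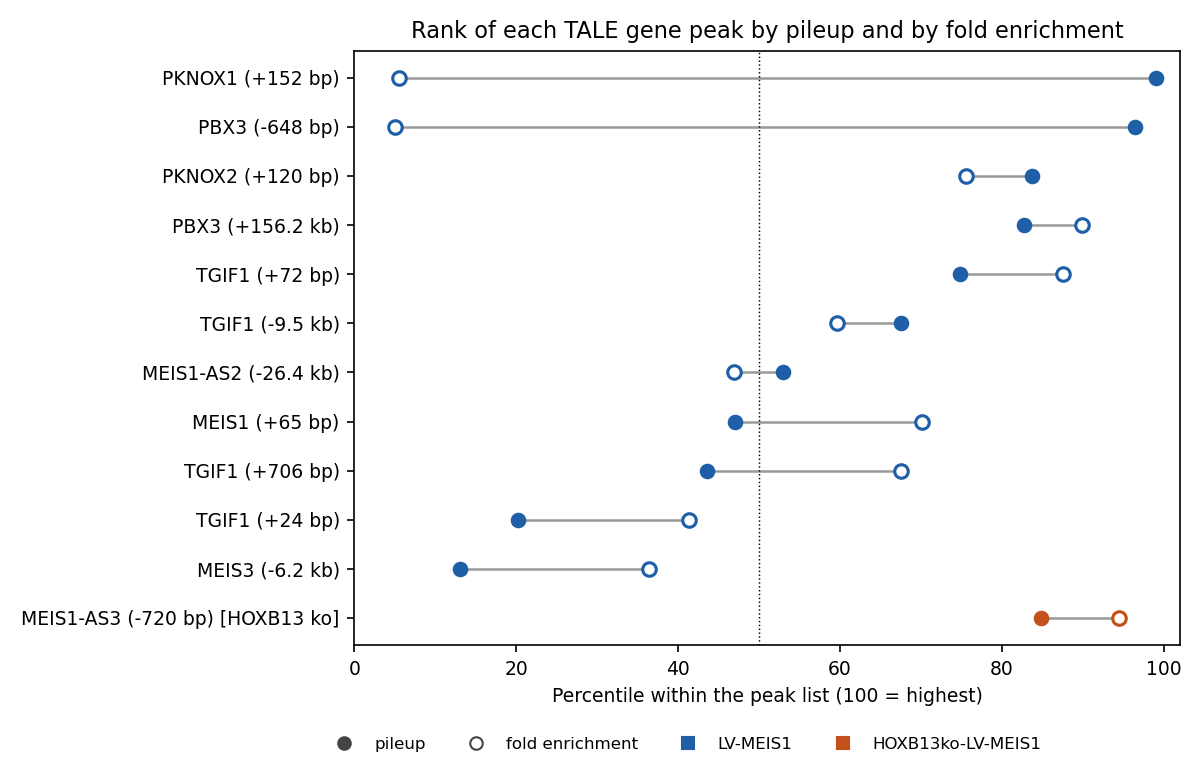
Percentile of each of the 12 peaks within its own list by pileup (filled circles) and by fold enrichment (open circles), ordered by pileup for LV-MEIS1 (blue) with the HOXB13ko-LV-MEIS1 peak (orange) in the last row. PKNOX1 and the PBX3 promoter move from the 99.0 and 96.5 percentiles to the 5.51 and 5.03 percentiles, and the other peaks move by less.

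Counted by position instead of by name, 13 LV-MEIS1 peaks and 2 HOXB13ko-LV-MEIS1 peaks lay in the 9 genes or within 10 kb of them, and 7 and 2 of the genes had such a peak. By the same rule a summit was found at 19.6% (19.0% to 20.1%) and 8.25% (7.88% to 8.64%) of 20033 protein-coding genes. Longer genes have more room for a summit, and gene length was not matched in these shares. Within 500 kb of the genes 41 LV-MEIS1 peaks and 7 HOXB13ko-LV-MEIS1 peaks were found. The share of all protein-coding genes with a peak at that distance was not computed, so only densities are compared. The density of LV-MEIS1 peaks in these wider windows ran from 0 per Mb at PBX2 to 7.57 per Mb at PBX4, against 1.91 per Mb over chromosomes 1 to 22, X and Y. For HOXB13ko-LV-MEIS1 peaks it ran from 0 at MEIS2, PBX2, PBX4 and TGIF1 to 1.97 per Mb at MEIS3, against 0.633.

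RefSeq promoters (GRCh38.p14, 300 bases each, most of them upstream of the start) were matched by symbol for 8 of the 9 genes, all but PKNOX2, with 16 start sites in all. TGACA was present in 6 of these 16, at MEIS2, PBX3 and TGIF1, against 38.9% of 35116 promoters. The PBX3 promoter of this set, chr9:125747933-125748232, is not the stretch under the PBX3 promoter peak described above. LV-MEIS1 peaks overlapped 5 of the 16, 1 at PKNOX1 and 4 at TGIF1, against 3.72% of all promoters. The TGIF1 promoters lie close together, and a pair of them share a peak. TGACA was present in 2 of the 5. At MEIS1 the promoter held no TGACA, and the matches near the LV-MEIS1 summit lay farther downstream in exon 1.

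Among the other TALE homeobox genes IRX1 to IRX6 and MKX, 0 of 7 had a peak by name in either list, which is near the 14.7% and 5.63% of protein-coding genes for so few genes. Of 25 genes that encode partners or regulators of TALE proteins (HOX proteins of the posterior groups, SMAD proteins, SKI and SKIL, PBXIP1, HDAC1, SIN3A and MEIS3P1), 7 had a peak in LV-MEIS1 cells, namely HOXA9, HOXA10, HOXB9, HOXB13, HOXC13, SMAD3 and HDAC1, and 1 in HOXB13ko-LV-MEIS1 cells, HOXA9. These counts stand beside the same 14.7% and 5.63%. At HOXA9 the peaks of both lines overlapped, at the 42.7 percentile by pileup in LV-MEIS1 cells and the 73.4 percentile in HOXB13ko-LV-MEIS1 cells. The LV-MEIS1 peaks at the other partner genes did not overlap a HOXB13ko-LV-MEIS1 peak, as 7.66% of all LV-MEIS1 peaks did. The peak at HOXB13, 429 bp upstream of the start of the gene that was knocked out in the other line, had a pileup of 31.29 and a fold enrichment of 4.61 in LV-MEIS1 cells.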

How the data were processed

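MEIS1 ChIP-seq peaks of CWR22Rv1 LV-MEIS1 and HOXB13ko-LV-MEIS1 cells were taken from the peak list and the annotation that the authors deposited for each line. Per the labels and methods, reads were trimmed with Trimmomatic 0.38, cleared of duplicates with Picard 2.18.10 and aligned to hg38 (GRCh38.p12) with Bowtie2. The authors pooled 3 and 2 immunoprecipitations, called peaks against 1 input with MACS2 2.1.2 (extension to 200 bp, q-value of 0.01) and annotated summits with HOMER 4.9.1. The deposited signal is the pileup at the summit, scaled to the input. In the deposited lists fold enrichment is pileup over local background, a ratio with 1 added to both terms, and p-values and q-values were deposited as −log10 values. Other deposited values are positions and distances to start sites.

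The members and lists were chosen with earlier results of these data known. Every peak named for a member or its antisense gene is reported. Some items are not reported here. Reads behind a pileup were recovered by dividing it by the ratio of input to pool tags, which gave whole numbers within 0.05 for all peaks. Background was computed as pileup plus 1, divided by fold enrichment, minus 1. Percentiles were ranks within a list. Overlap meant at least 1 bp. Gene positions came from GENCODE release 44 and sequence from hg38, whose chromosome names matched the files. No test was made, because each line has 1 list. Alternatives were stricter q-values and fold enrichment, other definitions of overlap, words, windows and ranks, and naming by position. Functions were tested on simulated data. Python 3.11.15 was used with pandas, pysam and matplotlib.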

Additional observations from a re-analysis of the deposited data

How the results depend on the processing

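Of 52 values recomputed for 12 results, 44 stayed within 1.5 times the count reported or within the interval of the percentile. Some of these could not change, so the tally is no measure of robustness. The HOXB13ko-LV-MEIS1 results rest on 1 peak. The lowest −log10 q-value of the 11 LV-MEIS1 peaks, 7.63, was above the limit of 5, so that limit removed none of them. The interval was that of a share of the whole list, not of the member peaks. The median pileup percentile of the 11 LV-MEIS1 peaks, 67.5, became 65.9 with −log10 q-values of at least 5 only, 46.5 with a fold enrichment of at least 5 only and 59.7 when ranked by fold enrichment. The second of these leaves out PKNOX1 and the PBX3 promoter, the peaks with the highest pileups. That of the HOXB13ko-LV-MEIS1 peak, 84.9, became 94.6 when ranked by fold enrichment. With antisense names left out, peaks and genes in HOXB13ko-LV-MEIS1 cells fell from 1 to 0 each, and with naming by position they rose to 2 each. Overlap stayed at 0 under every definition tried, and stricter limits could not have raised it. By summits within 100 bp, 6.40% of all LV-MEIS1 and 18.7% of all HOXB13ko-LV-MEIS1 peaks were shared. By a required longer overlap these shares were 7.32% and 21.3%. No paired analysis was possible because each line has 1 pooled list and no result comes from a test. The smaller number of tags in HOXB13ko-LV-MEIS1 cells limits what the absence of a peak there shows. A site without a peak was not detected at this depth and threshold, and whether it was bound is not known.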
